A study of Mus musculus with 2 samples.

Results

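Neutrophils of B16-F10 melanoma, a mouse melanoma line, were taken here as the cells that carry *S100a8* and *S100a9* RNA. A cell was chosen if mitochondrial genes made up under 10% of its unique molecular identifiers (UMIs, 1 per captured RNA molecule), if *S100a8* and *S100a9* together had at least 3 UMIs and at least 0.2% of its UMIs, and if the complement genes *C1qa*, *C1qb* and *C1qc*, which mark macrophages, together had at most 2 UMIs. This rule kept 186 of the 12078 cells under the mitochondrial limit in 2 libraries, 50 from the library labelled *Irg1*+/+ and 136 from the library labelled *Irg1*-/-. Cd45+ immune cells had been sorted from tumors on day 10 after subcutaneous injection of 200000 B16-F10 cells. For each genotype, 100 mm3 of tumor from each of 3 mice went into a single pool, and single cells were captured on BD Rhapsody, a microwell system that tags each RNA near its 3′ end. The *Irg1*+/+ mice served as controls, and the *Irg1*-/- mice carry a whole-body knockout of *Irg1* (now *Acod1*), on the C57BL/6J background. The mice used for subcutaneous tumors were females of 8 to 10 weeks.

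Each genotype has 1 library from pooled mice, so nothing in these data measures the spread between mice. No test between the genotypes was possible, and the genotype cannot be told apart from any other difference between the pools. Intervals below are exact 95% intervals for counting error only. Levels are UMIs summed over the cells of a group divided by all UMIs of those cells without mitochondrial genes and scaled to CPM, the usual counts-per-1e6 unit, and a log2 ratio is the library labelled *Irg1*-/- over the library labelled *Irg1*+/+ with 0.5 UMIs added. A difference is called 2-fold by size alone.

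Neutrophils are short-lived granulocytes that are made in the bone marrow under granulocyte colony-stimulating factor, which acts through the receptor encoded by *Csf3r*, and that follow ELR chemokines through the receptor encoded by *Cxcr2*. *S100a8* and *S100a9* encode the 2 subunits of calprotectin, a calcium- and metal-binding protein that fills the neutrophil cytosol. *Acod1* encodes the mitochondrial enzyme that makes itaconate from cis-aconitate in activated myeloid cells. In tumors, neutrophils are known to lose maturation genes and to gain genes of hypoxia, chemokine release and immune suppression as they stay in the tissue.

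All 5 marker genes have known places in the GRCm38 genome. *S100a8* (ENSMUSG00000056054) and *S100a9* (ENSMUSG00000056071) are protein-coding neighbors on chromosome 3, at chr3:90668978-90670035 on the plus strand and chr3:90692632-90695721 on the minus strand, with 22596 bases between them. *Cxcr2* lies at chr1:74153989-74161246, *Csf3r* at chr4:126024550-126044440 and *Acod1* (ENSMUSG00000022126) at chr14:103046977-103056573, all on the plus strand. The bases before the starts of the 2 genes that chose the cells and of the targeted gene are given here, from RefSeq promoter windows of GRCm38.p6, at chr3:90668821-90668977, chr3:90695722-90695971 and chr14:103046762-103046976, each read 5′ to 3′ on the strand of its gene, with matches to the C/EBP motif TTNCNNAA on either strand in capitals. C/EBP factors are known regulators of granulocyte genes.
S100a8: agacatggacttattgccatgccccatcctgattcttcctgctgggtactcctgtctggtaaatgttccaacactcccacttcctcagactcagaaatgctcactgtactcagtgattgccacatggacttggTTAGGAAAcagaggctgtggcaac
S100a9: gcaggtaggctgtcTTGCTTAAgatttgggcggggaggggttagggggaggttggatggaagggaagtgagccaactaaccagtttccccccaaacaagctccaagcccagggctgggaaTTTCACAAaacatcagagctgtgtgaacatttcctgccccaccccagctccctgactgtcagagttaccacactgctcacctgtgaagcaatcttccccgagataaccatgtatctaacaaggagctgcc
Acod1: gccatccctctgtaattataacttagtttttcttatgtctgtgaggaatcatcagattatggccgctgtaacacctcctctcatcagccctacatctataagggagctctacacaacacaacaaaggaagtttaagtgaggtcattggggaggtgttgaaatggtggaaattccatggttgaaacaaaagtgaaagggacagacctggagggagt
Within 250 bases before the RefSeq start, *S100a8* held 1 match, *S100a9* 2 matches and *Acod1* none, and 36.8% of all 32851 promoter windows of this length held at least 1. A match to the NF-κB motif GGGRNNYYCC, found in 7.25% of the windows, lay before *Csf3r* but not before the other 4 genes. Sites with other letters were not searched. The paper reports that RelA, an NF-κB subunit, was found more at the *Irg1* promoter in marrow-derived macrophages given medium of B16-F10 cells. These matches describe the letters of the windows and not binding.

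The chosen cells were 0.796% (0.591 to 1.05) of the 6284 kept cells of the library labelled *Irg1*+/+ and 2.35% (1.97 to 2.77) of the 5794 of the library labelled *Irg1*-/-. The files held 6408 and 5896 cells against 6000 sorted per sample, with 43617546 and 36432067 UMIs, and 124 and 102 were over the mitochondrial limit. The libraries shared 36 cell barcodes, none of them among the chosen cells. A chosen cell had a median of 1653.5 UMIs (864 to 4229) and 828.5 genes in the first library, and of 1722.5 UMIs (542 to 5968) and 806 genes in the second. All other cells had medians of 4688.5 and 4821.5 UMIs and of 2036 and 2032.5 genes. The chosen cells were thus shallow, and of similar depth in both libraries.

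*S100a8* and *S100a9* together had between 3 and 95 UMIs per chosen cell (median 12) in the library labelled *Irg1*+/+ and between 3 and 107 (median 23.5) in the library labelled *Irg1*-/-. Their share of a cell's UMIs ran from 0.229% to 4.78% (median 0.744%) and from 0.231% to 7.17% (median 1.32%). These values chose the cells and are given as a description. Few cells that met the other limits lay at those on *S100a8* and *S100a9*, and more at the limit on C1q. Exactly 3 UMIs were found in 1 and 4 chosen cells, and 1 cell in each library had 2 UMIs with the other limits met. A share of 0.2 to 0.25% was found in 3 and 3 chosen cells, and a share of 0.15 to 0.2% in 1 and 5 cells left out. Cells with 2 UMIs and the C1q limit met, at any share, were 5 and 39, and 1 and 10 cells failed on the share alone. Exactly 2 C1q UMIs were found in 8 and 28 chosen cells, and 3 to 5 in 6 and 26 cells left out. In all, 10 and 30 cells passed on *S100a8* and *S100a9* but had more than 2 C1q UMIs, and 10 and 26 of these had a *Cxcr2* or *Csf3r* UMI.

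Receptor genes, which the rule did not use, were detected in most chosen cells. A UMI of *Cxcr2* or *Csf3r* was found in 78.0% (64.0 to 88.5) of the 50 cells and 89.7% (83.3 to 94.3) of the 136 cells. In cells with at least 3 UMIs of the T cell genes *Cd3d*, *Cd3e* and *Cd3g*, which should lack both receptors, the share was 3.19% of 596 and 4.71% of 340 cells, at median depths of 3266.5 and 2675.5 UMIs. Drawing 1000 UMIs from every cell, which left out 1 and 17 chosen cells, gave shares of 77.6% and 82.4% in the chosen cells and 0.536% and 0.623% in the T cell marker cells. Without this draw, the share was 36.1% and 33.5% in *Vcan* monocyte, 35.8% and 43.0% in C1q macrophage and 15.1% and 7.32% in eosinophil marker cells, groups defined below. With the draw these shares were 10.0% and 9.16%, 4.29% and 8.46%, and 4.76% and 1.32%. *Cxcr2* was found in at most 1.94% of the cells of any of these groups before the draw, so *Csf3r* gave most of these shares. Of the 19 neutrophil markers listed, all had UMIs in the chosen cells of 1 or both libraries. Without *S100a8* and *S100a9*, which chose the cells, the other 17 summed to 22905 and 22480 CPM against 737 and 837 CPM in all other cells. *Ly6g*, the usual surface marker of mouse neutrophils, was found in 0 of 50 cells and in 4 of 136 cells. By the limit of 3 counts, 0 of 50 allows a share of cells with a UMI of up to 6%, which does not limit the share of cells that express the gene.

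**Figure D1:**
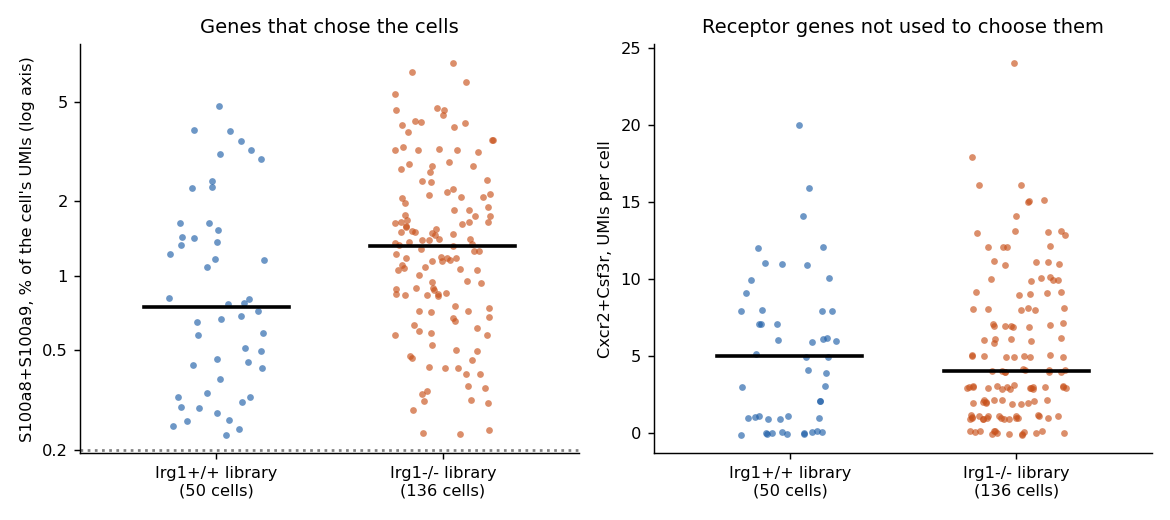
Each point is 1 chosen cell of the library labelled Irg1+/+ (50 cells) or Irg1-/- (136 cells), and black lines are medians. The left panel shows the share of UMIs from S100a8 and S100a9 in percent on a log axis, with the limit of 0.2% dotted and medians of 0.744% and 1.32%. The right panel shows UMIs of Cxcr2 and Csf3r per cell, genes that did not choose the cells, with medians of 5 and 4 and some cells of both libraries at 0.

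Markers of other cell types were present too, most lists at lower levels than in all other cells, and some were higher in the library labelled *Irg1*-/-. The 8 monocyte markers summed to 837 and 1997 CPM in the chosen cells and to 2961 and 4330 CPM in all other cells. *Ly6c2* was their most abundant gene over both libraries together, with 24 and 274 UMIs, followed by *Hp* with 25 and 73 UMIs, and 8 and 52 chosen cells had at least 3 UMIs of the list. Of the 3 monocyte markers with 50 UMIs, 2 were 2-fold higher, *Ly6c2* and *Ms4a4c*, where 4.31% of all genes tested were. *Ms4a4c* had 4 and 53 UMIs, so it reached the minimum of 50 through the library labelled *Irg1*-/-, where it was higher. Monocyte markers under this minimum were not counted. Without the C1q genes, which the rule limits, 7 macrophage markers summed to 639 and 776 CPM (2157 and 2372 CPM in the other cells), led by *Apoe*. Markers of eosinophils, another kind of granulocyte, summed to 116 and 232 CPM (51.4 and 72.5 CPM in the other cells), and *Epx* and *Il5ra* were at 0 in both libraries. T cell markers summed to 453 and 404 CPM (1799 and 1343 CPM in the other cells) and NK cell markers to 174 and 380 CPM (650 and 1293 CPM). Dendritic cell markers summed to 174 and 312 CPM (963 and 983 CPM), and mast cell markers to 11.6 and 44.0 CPM (86.2 and 166 CPM). Nonclassical monocyte markers summed to 953 and 1241 CPM, above the 902 and 1130 CPM in the other cells. Nearly all came from *Nr4a1*, an immediate-early gene, while *Ace* was at 0. B cell markers summed to 465 and 84.1 CPM (129 and 149 CPM in the other cells), and 90.6% of the *Ighm* UMIs of the first library came from 1 cell. Melanocyte markers summed to 221 and 40.0 CPM (836 and 176 CPM in the other cells), with *Tyr* and *Mlana* at 0. The part of these cells or of free RNA in the results below was not tested.

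The genes that stood highest in the chosen cells over all other cells included the receptor gene *Cxcr2* and granule genes. By the lower of the 2 libraries' folds over all other cells, among genes that had at least 50 UMIs in the chosen cells and were seen in 10% of them or more in each library, the 15 leading genes were *S100a9*, *Cxcr2*, *Stfa2l1*, *Il1f9*, *Cstdc4*, *S100a8*, *Chil1*, *Il23a*, *Mirt2*, *Lcn2*, *Steap4*, *Lrg1*, *Mmp9*, *Asprv1* and *G0s2*. These folds ran from 235 for *S100a9* to 59.2 for *G0s2*. *S100a8* and *S100a9* are in this order because they chose the cells. Of the 15 genes, 6 are on the list of neutrophil markers, these 2 included. The folds are a description with no test, since the groups compared were cut by genes of the same cells.

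*Cxcr2* was at 1465 and 1517 CPM in the chosen cells and at 2.67 and 6.56 CPM in all other cells, and *Csf3r* at 1546 and 1401 CPM against 32.1 and 44.2 CPM. Neither receptor differed between the libraries beyond counting error, with log2 ratios of 0.05 (-0.24 to 0.35) and -0.15 (-0.43 to 0.16). *Il1f9*, an older name of the gene for interleukin-36 gamma, was at 965 and 1049 CPM against 1.17 and 5.11 CPM. *Mmp9*, gelatinase B of the tertiary granules, was at 732 and 608 CPM against 3.64 and 7.25 CPM. *G0s2*, an inhibitor of the lipase ATGL, was at 453 and 412 CPM against 2.55 and 6.99 CPM. *Lcn2*, which binds bacterial iron carriers, was at 419 and 316 CPM, and *Lrg1*, a secreted glycoprotein, at 372 and 772 CPM. *Il23a*, the specific subunit of interleukin-23, was at 279 and 208 CPM, but 54.2% of its UMIs in the library labelled *Irg1*+/+ came from 1 cell. *Stfa2l1* and *Cstdc4*, inhibitors of cysteine proteases, belong to a cluster of near-identical copies, so their counts are uncertain.

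**Figure D2:**
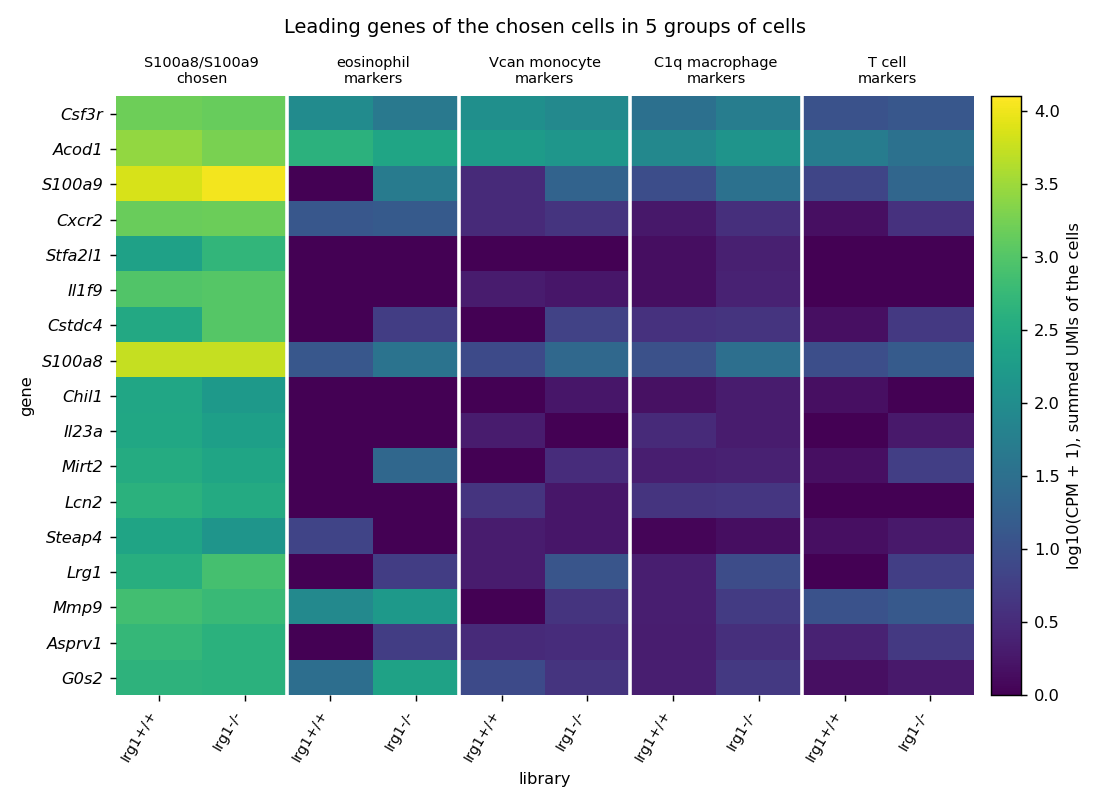
Rows are Csf3r, Acod1 and the 15 leading genes of the chosen cells, columns are 5 groups of cells in each library, and the color gives log10 of CPM + 1 from UMIs summed over the cells. The other groups were set by their own markers and lie outside the chosen cells. Each row is brightest in the chosen cells, and Mmp9, G0s2 and Acod1 also have signal in eosinophil marker cells.

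*Acod1* had UMIs in the chosen cells of both libraries. There were 238 *Acod1* UMIs in 33 of 50 cells in the library labelled *Irg1*+/+, 2767 CPM (2427 to 3142), and 472 UMIs in 108 of 136 cells in the library labelled *Irg1*-/-, 1889 CPM (1722 to 2067). The level was lower in the second library by a log2 ratio of -0.55 (-0.78 to -0.32), while the share of cells with a UMI was 66.0% (51.2 to 78.8) and 79.4% (71.6 to 85.9). This log2 ratio was -0.30 with TMM, a scaling explained below. In cells chosen on *Cxcr2* and *Csf3r* in place of *S100a8* and *S100a9* it was -0.09 (-0.33 to 0.16). Per cell, *Acod1* had a median of 2.5 UMIs in both libraries, with a maximum of 24 and 16. In T cell marker cells a UMI was found in 8.22% and 8.82% of cells. The counts are per gene and tagged near the 3′ end, and the deleted stretch is not given in the sources used here, so these UMIs do not check the genotype.

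The chosen cells had the highest *Acod1* level of the 5 groups of cells compared, in both libraries. Eosinophil marker cells (at least 3 UMIs of *Ccr3*, *Siglecf*, *Alox15* and *F5*; 73 and 123 cells) had 433 and 259 CPM of *Acod1*, and *Vcan* monocyte marker cells (at least 2 UMIs each of *Vcan* and *Ly6c2*; 194 and 254 cells) had 175 and 140 CPM. C1q macrophage marker cells (at least 20 UMIs of *C1qa*, *C1qb* and *C1qc*; 795 and 721 cells) had 80.6 and 129 CPM, and T cell marker cells 52.3 and 32.8 CPM. The order of the 5 groups was the same in both libraries, and the intervals of neighboring *Acod1* levels overlapped only for monocyte and macrophage marker cells of the library labelled *Irg1*-/-. The chosen cells were few, and held 6.44% and 12.4% of the 3696 and 3805 *Acod1* UMIs of the kept cells, against 55.4% and 58.9% of the UMIs of *S100a8* and *S100a9*.

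**Figure D3:**
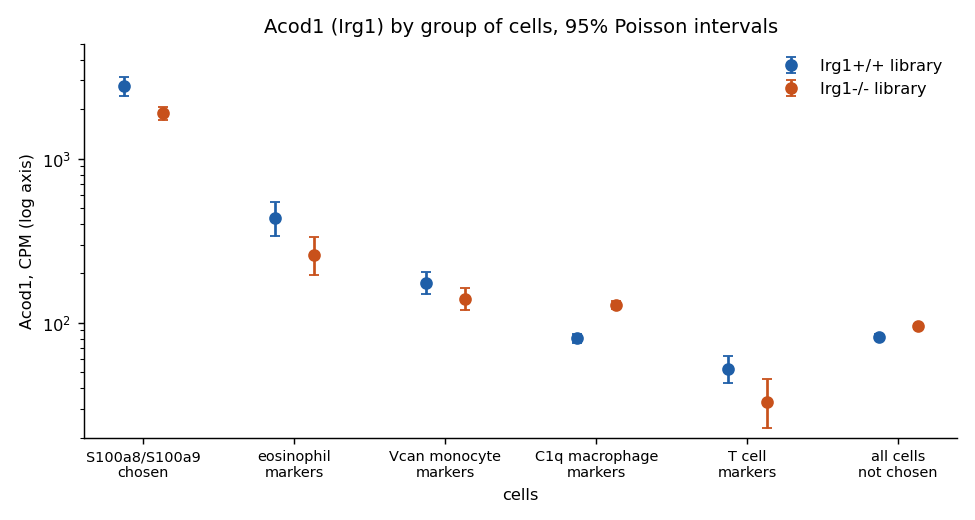
Points are Acod1 CPM on a log axis in the chosen cells, in 4 groups set by other markers and in all cells not chosen, for both libraries, with exact 95% Poisson intervals that cover counting error only. The chosen cells stand highest, at 2767 and 1889 CPM, and the libraries are in the opposite order in C1q macrophage marker cells, at 80.6 and 129 CPM.

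Across all genes the 2 libraries were close. Of 1159 genes with at least 50 UMIs over the chosen cells of both libraries, 50 (4.31%) were at least 2-fold higher and 36 (3.11%) at least 2-fold lower in the library labelled *Irg1*-/-, and the median log2 ratio was -0.06 with quartiles of -0.35 and 0.27. Scaling by TMM, another way of setting the libraries to a common level, added 0.26 to every log2 ratio, which moved the median of all genes to 0.20 and turned these counts into 91 higher and 16 lower. The minimum of 50 UMIs is a sum over both libraries, which had 86007 and 249865 UMIs in the chosen cells. Genes higher in the second library therefore reached it more easily, here and in the lists below. Counts of list members above or below 0, given below, depend on the scaling too, since the median of all genes was -0.06 or 0.20 by the scaling. With no minimum, 1154 of 10104 genes were 2-fold higher and 2365 lower. *S100a8* had the same level in both libraries, 5546 and 5547 CPM (0.00, -0.15 to 0.15), while *S100a9* was at 7232 and 10790 CPM (0.58, 0.45 to 0.71). Both genes chose the cells, and their values are a description. The 19 neutrophil markers included 17 with 50 UMIs, of which 2 were 2-fold higher, *Wfdc21* and *Stfa2l1*, and 1 was lower, *Retnlg*.

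Among genes with 100 UMIs or more that were seen in 10% or more of the chosen cells of either library, the 10 highest log2 ratios belonged to *Crem*, *Ly6c2*, *Cstdc4*, *Cxcl9*, *Ppp1r3b*, *Hspa1a*, *Sik1*, *Hsp90aa1*, *Sirpb1c* and *Tapbp*. This minimum is also a sum over both libraries, and these genes reached it mainly through the library labelled *Irg1*-/-, where they were higher. *Crem* had 7 and 98 UMIs, *Cxcl9* 10 and 90, *Ppp1r3b* 12 and 97, *Sirpb1c* 13 and 93 and *Sik1* 14 and 104. *Crem*, a transcription factor of the cAMP response, was at 81.4 and 392 CPM (2.18, 1.17 to 3.62), and *Sik1*, a kinase induced by cAMP, at 163 and 416 CPM (1.31, 0.54 to 2.27). *Ppp1r3b*, which ties protein phosphatase 1 to glycogen, was at 140 and 388 CPM (1.42, 0.61 to 2.48) and had a UMI in 16.0% and 36.8% of cells. *Tapbp*, the tapasin of MHC class I loading, was at 209 and 484 CPM (1.18, 0.49 to 2.01) with a UMI in 26.0% and 52.9% of cells. In cells chosen on *Cxcr2* and *Csf3r* in place of *S100a8* and *S100a9*, the log2 ratio was 0.72 for *Crem*, 0.75 for *Sik1* and 0.35 for *Tapbp*, all under 2-fold, and 1.82 for *Ppp1r3b*.

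*Ly6c2* and *Cxcl9* are genes of monocytes and macrophages more than of neutrophils. *Ly6c2* was at 279 and 1097 CPM (1.95, 1.37 to 2.64) in the chosen cells, and it was higher in the library labelled *Irg1*-/- outside them too, at 780 and 1668 CPM in all other cells and at 461 and 1274 CPM in C1q macrophage marker cells. In chosen cells with at least 2 receptor UMIs and at most 2 UMIs of 5 monocyte genes (*Ly6c2*, *Vcan*, *Ccr2*, *F13a1*, *Ms4a4c*), a limit that itself caps *Ly6c2*, its log2 ratio was 0.08. *Cxcl9*, a chemokine induced by interferon gamma, was at 116 and 360 CPM against 710 and 1050 CPM in all other cells, and 33.3% of its UMIs in the second library came from 1 cell. Its log2 ratio of 1.57 (0.69 to 2.74) was 0.90 in receptor cells with few monocyte UMIs, 0.83 in chosen cells under 1% *S100a8* and *S100a9* and -0.078 in cells chosen on the receptor genes, so its direction depended on which cells were taken. The heat-shock gene *Hspa1a* had 63.2% of its UMIs in the first library and 33.3% in the second in 1 cell each.

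The 10 lowest log2 ratios belonged to *Cass4*, *Slc40a1*, *Inhba*, *Adgre5*, *Pmaip1*, *Retnlg*, *Sema4d*, *Fyb*, *Cxcr4* and *Tnfrsf1b*. *Cass4*, a scaffold of adhesion signaling, was at 709 and 228 CPM (-1.64, -2.18 to -1.09), and *Slc40a1*, the iron exporter ferroportin, at 709 and 248 CPM (-1.52, -2.05 to -0.98). Both genes were far lower in all other cells, *Cass4* at 35.2 and 41.0 CPM and *Slc40a1* at 8.23 and 6.50 CPM. *Adgre5*, which encodes the adhesion receptor CD97, was at 639 and 288 CPM (-1.15, -1.68 to -0.62), and *Cxcr4*, the receptor that holds neutrophils in the marrow, at 1151 and 584 CPM (-0.98, -1.36 to -0.60). In cells chosen on the receptor genes these log2 ratios were smaller, -0.86 for *Cass4*, -0.39 for *Adgre5* and -0.23 for *Cxcr4*, while *Slc40a1* was still 2-fold lower. *Tnfrsf1b*, the second TNF receptor, was at 1116 and 568 CPM (-0.98, -1.36 to -0.58), but its log2 ratio was -0.20 in cells with at least 1% *S100a8* and *S100a9* and 0.12 in cells chosen on *Cxcr2* and *Csf3r* in their place. *Retnlg*, a resistin-like secreted protein of granulocytes, was at 1116 and 552 CPM (-1.02, -1.40 to -0.62), but 42.7% of its UMIs in the library labelled *Irg1*+/+ came from 1 cell, and with the top cell of each library left out its log2 ratio was -0.36. *Inhba*, which encodes the activin A subunit, was at 767 and 324 CPM (-1.25, -1.73 to -0.75), a direction that did not hold in every range of cells.

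**Figure D4:**
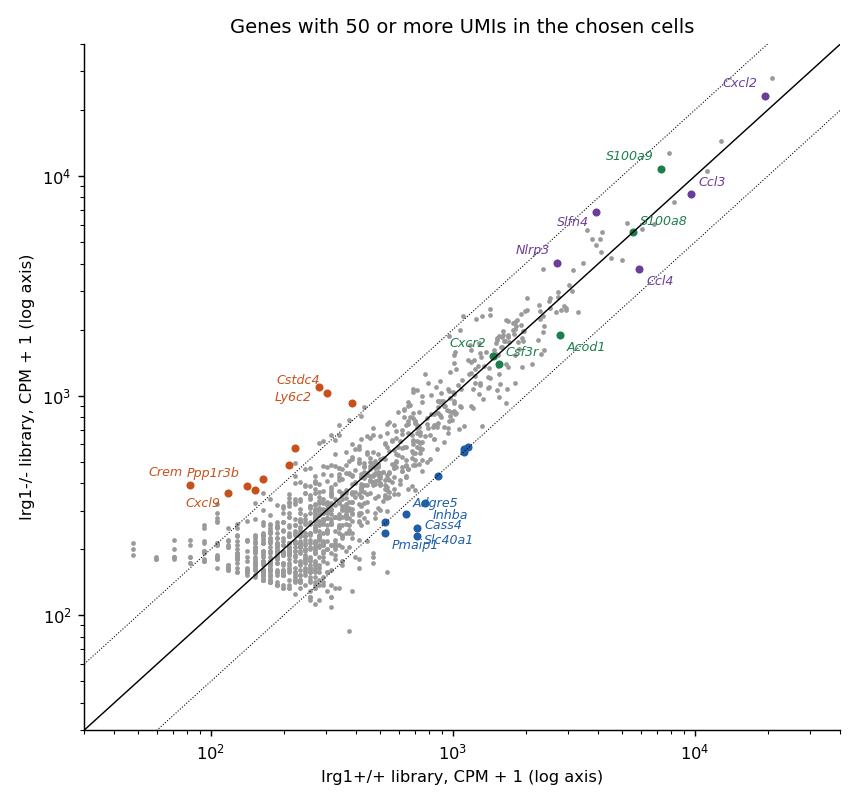
Points are the 1159 genes with at least 50 UMIs, by CPM + 1 in the library labelled Irg1+/+ (x axis) and Irg1-/- (y axis), both on log axes, with equal levels as a solid line and 2-fold differences dotted. Green marks the 5 marker genes, orange and blue the 10 highest and 10 lowest ratios (5 of each named) and purple 5 abundant chemokine, inflammasome and interferon genes. Most genes lie between the dotted lines, with Acod1 below and S100a9 above the solid line.

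Azurophil granule genes were not detected, while most genes of the later granules were. The azurophil genes *Mpo*, *Elane*, *Prtn3*, *Ctsg* and *Ms4a3* had 0 UMIs in both libraries, which allows up to 34.9 and 12.0 CPM for each. Of 13 genes of specific and gelatinase granules, 11 had UMIs and 5 had at least 50, and 1 of these, *Wfdc21*, was 2-fold higher in the library labelled *Irg1*-/- (58.1 and 180 CPM, from 5 and 45 UMIs), beside 4.31% of all genes. *Wfdc21* reached the minimum of 50 UMIs mainly through that library. *Mmp8*, the collagenase of specific granules, was at 244 and 180 CPM and *Lcn2* at 419 and 316 CPM, while *Camp* was at 0. *Lyz2*, lysozyme, was lower in the chosen cells than elsewhere, at 1802 and 2013 CPM against 5318 and 5564 CPM. The median log2 ratio of the 5 genes was -0.27, and -0.02 with TMM. It turned between ranges of cells, at -0.83 with at least 1% *S100a8* and *S100a9* and 0.80 under 1%. Of the 12 cell cycle genes, *Pcna* alone reached 50 UMIs, and the list summed to 581 and 452 CPM against 2011 and 1640 CPM in all other cells.

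A list of 11 receptor genes, for granulocyte colony-stimulating factor (*Csf3r*), niacin and butyrate (*Hcar2*), chemokines and other chemoattractants, was abundant in the chosen cells. It summed to 11952 and 12035 CPM against 997 and 1181 CPM elsewhere. Of the 9 with 50 UMIs, 1 was 2-fold higher, *Fpr2*, a formyl peptide receptor, at 279 and 608 CPM (1.10, 0.50 to 1.81), and none was 2-fold lower, beside 4.31% and 3.11% of all genes. *Hcar2*, the receptor for niacin and butyrate, was at 3139 and 3730 CPM against 71.9 and 96.7 CPM elsewhere. *Ptafr*, the receptor for platelet-activating factor, was at 1546 and 989 CPM (-0.65, -0.96 to -0.33). *Ccr1* was at 1279 and 1737 CPM (0.44, 0.14 to 0.76), and *C5ar1*, the receptor of the complement fragment C5a, at 1232 and 1141 CPM. The median of the 9 was 0.05.

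The 13 genes listed for pattern recognition and Fc receptors include *Myd88* and *Nlrp3*. None of them was 2-fold apart, beside 4.31% higher and 3.11% lower of all genes. Their median was 0.12, and with TMM 1 of the 13 was 2-fold higher. *Nlrp3*, the sensor of the inflammasome, was at 2697 and 4022 CPM (0.57, 0.37 to 0.79), against 353 and 339 CPM in all other cells. *Tlr2*, the receptor for bacterial lipopeptides, was at 651 and 376 CPM (-0.80, -1.28 to -0.29) and *Fcgr3*, a low-affinity receptor for IgG, at 686 and 1077 CPM (0.64, 0.24 to 1.08). The C-type lectins *Clec4d* and *Clec4e* were at 2279 and 2597 CPM and at 2302 and 2429 CPM, alike within counting error. Of 6 adhesion genes, 5 had a log2 ratio below 0 and none was 2-fold apart, beside the same shares of all genes (median -0.36, and -0.10 with TMM). *Itgal*, the alpha chain of LFA-1, was at 477 and 292 CPM (-0.71, -1.28 to -0.12).

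Chemokines made up 41148 and 40874 CPM of the chosen cells' RNA against 8359 and 7126 CPM elsewhere. *Cxcl2*, a ligand of the receptor encoded by *Cxcr2*, was at 19475 and 23180 CPM (0.25, 0.17 to 0.33), against 1615 and 1124 CPM in all other cells, with a median of 16.5 and 30.5 UMIs per cell. *Ccl3*, which attracts monocytes and T cells, was at 9685 and 8312 CPM (-0.22, -0.34 to -0.10) and the related *Ccl4* at 5872 and 3786 CPM (-0.63, -0.79 to -0.47). *Cxcl3* was at 2314 and 1541 CPM (-0.59, -0.84 to -0.33). Of 9 chemokines with 50 UMIs, 1 was 2-fold higher, *Cxcl9*, whose direction did not hold in cells chosen on the receptor genes, and none lower, beside 4.31% and 3.11% of all genes, with a median of -0.22 that was 0.03 with TMM.

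Among cytokines and their inhibitors no gene of 9 was 2-fold apart, beside 4.31% higher and 3.11% lower of all genes (median -0.24, and 0.01 with TMM). With TMM 1 of the 9 was 2-fold higher. The median turned to 0.50 in receptor cells with few monocyte UMIs and to 0.73 in cells chosen on the receptor genes. *Il1b*, encoding interleukin-1 beta, was at 7802 and 12699 CPM (0.70, 0.58 to 0.83), with a UMI in 94.0% and 98.5% of the chosen cells and a median of 10 and 17.5 UMIs per cell. T cell marker cells also held *Il1b*, in 52.0% and 47.9% of cells, at 484 and 408 CPM. The interleukin-1 inhibitors *Il1rn* and *Il1r2*, a receptor antagonist and a decoy receptor, were at 5000 and 4134 CPM (-0.28, -0.44 to -0.11) and at 3104 and 3014 CPM. *Csf1*, the growth factor of macrophages, was at 1651 and 929 CPM (-0.83, -1.14 to -0.52), against 61.2 and 36.4 CPM in all other cells. *Il1a* was at 779 and 500 CPM (-0.64), with 44.8% of the first library's UMIs in 1 cell, and *Il6* was at 0.

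Of 13 type I interferon response genes with 50 UMIs, 10 had a log2 ratio above 0 and 2 were 2-fold higher, *Ifi204* and *Stat2* (median 0.53). The median of all genes was -0.06, and 0.20 with TMM, so counts above 0 depend on the scaling. *Stat2* had 8 and 53 UMIs, so it reached the minimum of 50 through the library labelled *Irg1*-/-, where it was higher. *Slfn4*, a Schlafen gene of myeloid cells, was at 3907 and 6860 CPM (0.81, 0.64 to 0.99), against 164 and 336 CPM in all other cells, where it was also higher in the library labelled *Irg1*-/-. *Ifitm3*, an antiviral membrane protein, was at 965 and 1869 CPM (0.95, 0.61 to 1.31), and at 1284 and 2121 CPM elsewhere. *Rsad2*, encoding viperin, went the other way, at 744 and 452 CPM (-0.72, -1.17 to -0.25). The list's median was -0.08 in the chosen cells with at least 2 receptor UMIs and at most 2 monocyte UMIs and -0.28 in those with under 1% *S100a8* and *S100a9*, so its direction depended on which cells were taken. Of 11 type II interferon genes, 9 were above 0 and 1 was 2-fold higher, *Cxcl9*, with the limit given above (median 0.47). The counts of 2-fold members, 2 of 13 and 1 of 11, stand beside 4.31% of all genes. With TMM they were 5 of 13 and 2 of 11, beside 91 of all 1159 genes.

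MHC class I genes had a median of 0.32, with 1 of 7, *Tapbp*, 2-fold higher, beside 4.31% of all genes. *B2m*, the light chain, was at 3895 and 4859 CPM (0.32, 0.14 to 0.50), close to its 5205 and 5931 CPM in all other cells. MHC class II genes were lower in the chosen cells than in all others, 6337 and 7820 CPM against 18129 and 22028 CPM for 7 genes. All 4 with 50 UMIs had a log2 ratio above 0 (median 0.29), but the median was -0.34 in receptor cells with few monocyte UMIs and -0.39 in cells under 1% *S100a8* and *S100a9*. *H2-Ab1* was at 1988 and 2433 CPM, and 1 cell in each library gave 23.4% and 26.6% of its UMIs. T cell marker cells, which make little class II RNA, had 1720 and 2315 CPM of *H2-Aa* against 1605 and 1977 CPM in the chosen cells, so the level of *H2-Aa* was no higher than in cells that should lack it.

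Genes of the NF-κB response had a median of 0.36, with 8 of 11 above 0 and 1 of 11 2-fold higher, *Bcl3* (46.5 and 200 CPM, from 4 and 50 UMIs), beside 4.31% of all genes. *Bcl3* reached the minimum of 50 UMIs through the library labelled *Irg1*-/-, where it was higher. *Nfkbia*, the inhibitor that NF-κB itself induces, was at 4128 and 5559 CPM (0.43, 0.26 to 0.60), and *Tnfaip2*, another target, at 2384 and 1617 CPM (-0.56, -0.81 to -0.31). Genes that dissociation of tissue is known to induce had 11 of 14 above 0, with 3 of 14 2-fold higher (*Fos*, *Hspa1a*, *Hsp90aa1*), beside 4.31% of all genes, and a median of 0.46. These counts above 0 stand beside a median of all genes of -0.06, or 0.20 with TMM. In receptor cells with few monocyte UMIs, *Hspa1a* was at a log2 ratio of 0.02 and *Hsp90aa1* at 0.37, so neither was 2-fold higher there. *Fos*, an AP-1 subunit, was at 1105 and 2297 CPM (1.05, 0.74 to 1.39), and *Junb*, its partner, at 1418 and 2341 CPM (0.72, 0.44 to 1.02). In all other cells *Fos* was at 1142 and 1581 CPM and *Junb* at 805 and 1104 CPM. These lists overlap, since *Zfp36* is in both, and the part of dissociation in these values was not tested. Of 15 transcription factors none was 2-fold apart, beside 4.31% higher and 3.11% lower of all genes (median 0.25), with *Csrnp1* at 1070 and 1993 CPM (0.89, 0.57 to 1.23) and *Cebpb*, a C/EBP factor, at 1825 and 2069 CPM (0.18, -0.08 to 0.45). Under TMM scaling 2 of the 15 were 2-fold higher.

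Genes around itaconate and the antioxidant factor Nrf2 had a median of -0.17 (0.08 with TMM), and 2 of 8 were 2-fold higher, *Txnrd1* and *Prdx1*, beside 4.31% of all genes. *Txnrd1*, thioredoxin reductase, was at 151 and 324 CPM (1.06, 0.25 to 2.07) and *Prdx1* at 116 and 248 CPM (1.03, 0.12 to 2.22), from 13 and 10 UMIs in the first library. *Nfe2l2*, which encodes Nrf2, was at 1488 and 1497 CPM (0.00, -0.29 to 0.31). Its targets *Slc7a11*, the cystine importer, and *Hmox1*, heme oxygenase, were at 1395 and 1081 CPM (-0.37, -0.68 to -0.05) and at 965 and 764 CPM (-0.34, -0.72 to 0.05). *Slc7a11* was at 58.1 and 48.4 CPM in all other cells. Of 5 NADPH oxidase genes, 4 were below 0 (median -0.29, and -0.04 with TMM) and 1 was 2-fold higher, beside 4.31% of all genes. The higher gene was *Cybb*, the catalytic subunit, with 7 and 55 UMIs. *Cybb*, like *Txnrd1* and *Prdx1*, reached the minimum of UMIs through the library labelled *Irg1*-/-, where it was higher.

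Among 8 genes tied to suppression by neutrophils none was 2-fold apart, beside 4.31% higher and 3.11% lower of all genes (median 0.26, and -0.10 in cells under 1% *S100a8* and *S100a9*). Under TMM scaling 1 of the 8 was 2-fold higher. *Ptgs2*, cyclooxygenase-2, was at 1430 and 2489 CPM (0.79, 0.52 to 1.09), *Cd274*, encoding PD-L1, at 907 and 945 CPM (0.05, -0.32 to 0.45), and *Spp1*, osteopontin, at 651 and 937 CPM (0.51, 0.10 to 0.97). Of 19 genes of glycolysis and hypoxia, 1 was 2-fold higher, *Slc2a1*, the glucose transporter GLUT1, at 291 and 620 CPM (1.07, 0.48 to 1.77), beside 4.31% of all genes, and the median was 0.01. The survival gene *Mcl1* was at 3453 and 4006 CPM (0.21, 0.03 to 0.41) and *Pim1*, a kinase of cytokine signaling, at 2360 and 3794 CPM (0.68, 0.46 to 0.91), with a median of 0.09 over 8 genes. *Bcl2a1a* and its near-identical copies are uncertain. Of 4 lipid mediator genes none was 2-fold apart, beside the same shares of all genes (median -0.26, and 0.00 with TMM). With TMM 1 of these 4 was 2-fold higher.

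The chosen cells varied in their receptor UMIs, with few cells at 2 to 4 UMIs in the first library only. In the library labelled *Irg1*+/+, 18 cells had 0 or 1 UMI of *Cxcr2* and *Csf3r*, 6 had 2 to 4 and 26 had 5 or more, and in the library labelled *Irg1*-/- these numbers were 34, 40 and 62. Crossed with the 5 monocyte genes, cells with at least 2 receptor UMIs and under 3 monocyte UMIs were 32 (64.0%) and 78 (57.4%), those with few receptor and few monocyte UMIs 17 (34.0%) and 25 (18.4%), those with both 0 and 24 (17.6%), and those with monocyte UMIs alone 1 and 9. The range with both kinds of UMI was thus empty in the first library, where 0 of 50 cells allows up to 6% by the limit of 3 counts.

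Cells with few receptor and few monocyte UMIs differed from receptor cells in the same direction in both libraries for the genes named here, which were picked after their values were seen. *Hilpda*, a lipid-droplet protein induced by hypoxia, was at 3471 and 3775 CPM in them against 156 and 1211 CPM in receptor cells with few monocyte UMIs. *Ccl3* was at 19769 and 17377 CPM against 4658 and 7361 CPM, and *Vegfa*, the hypoxia-induced growth factor of vessels, at 1585 and 1249 CPM against 139 and 344 CPM. *Inhba* was at 2226 and 861 CPM against 122 and 224 CPM, and *Cd274* at 1735 and 1721 CPM against 556 and 971 CPM. *Retnlg* was at 37.7 and 83.3 CPM against 1651 and 725 CPM, and *Mmp9* at 75.5 and 83.3 CPM against 921 and 702 CPM, where the lower levels rest on 1 and 3 UMIs of *Retnlg* and 2 and 3 UMIs of *Mmp9*. *Acod1* differed less, at 1811 and 1860 CPM against 3216 and 2122 CPM, and in the cells with few receptor and few monocyte UMIs its log2 ratio between the libraries was 0.03 (-0.52 to 0.60). Cells of the 2 ranges had similar depth, with medians of 1454 and 1421 UMIs against 1672 and 1628.5.

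The chosen cells also varied in the share of *S100a8* and *S100a9*, a value that chose them. Cells under 1% were 29 of 50 (58.0%, 43.2 to 71.8) in the library labelled *Irg1*+/+ and 49 of 136 (36.0%, 28.0 to 44.7) in the library labelled *Irg1*-/-. Over the 4 ranges of 0.2 to 0.5%, 0.5 to 1%, 1 to 2% and at least 2%, the first library had 18, 11, 11 and 10 cells and the second 20, 29, 49 and 38. Of 5 genes of specific and gelatinase granules with 50 UMIs, 4 were higher in cells with at least 1% in both libraries and 1 went opposite ways. Of all 1157 genes with 50 UMIs other than *S100a8* and *S100a9*, 368 were higher in both libraries. On the log2 scale, *Lcn2* differed between cells with at least 1% and cells under 1% by 2.29 and 2.42 in the 2 libraries, *Retnlg* by 2.71 and 1.81, *Cxcr2* by 1.06 and 0.98, *Csf3r* by 0.42 and 0.84 and *Mmp9* by 1.84 and 0.03.

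Other genes were lower in cells with at least 1%, and those named here were picked after their values were seen. *Inhba* differed by -5.14 (-11.03 to -3.18) and -1.84 (-2.55 to -1.17), with 1 UMI in the first library's cells of at least 1%. *Spp1* differed by -2.20 and -1.63, *Vegfa* by -2.22 and -1.49, *Hilpda* by -1.06 and -1.63, *Ccl3* by -1.22 and -1.03 and *Ptgs2* by -0.73 and -0.73. *Acod1* differed by -0.05 and 0.16, so its level differed little between these ranges. Of 19 genes of glycolysis and hypoxia with 50 UMIs, 10 were lower and 3 higher in cells with at least 1% in both libraries, of 9 chemokines 6 were lower and 2 higher, and of 9 cytokines and inhibitors 4 were lower and 2 higher. Of 15 other neutrophil markers, 11 were higher and 1 lower. Over all 1157 genes with 50 UMIs other than *S100a8* and *S100a9*, 368 were higher and 332 lower in both libraries and 457 went opposite ways. The cells were ordered by the genes that chose them, and these differences are a description.

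**Figure D5:**
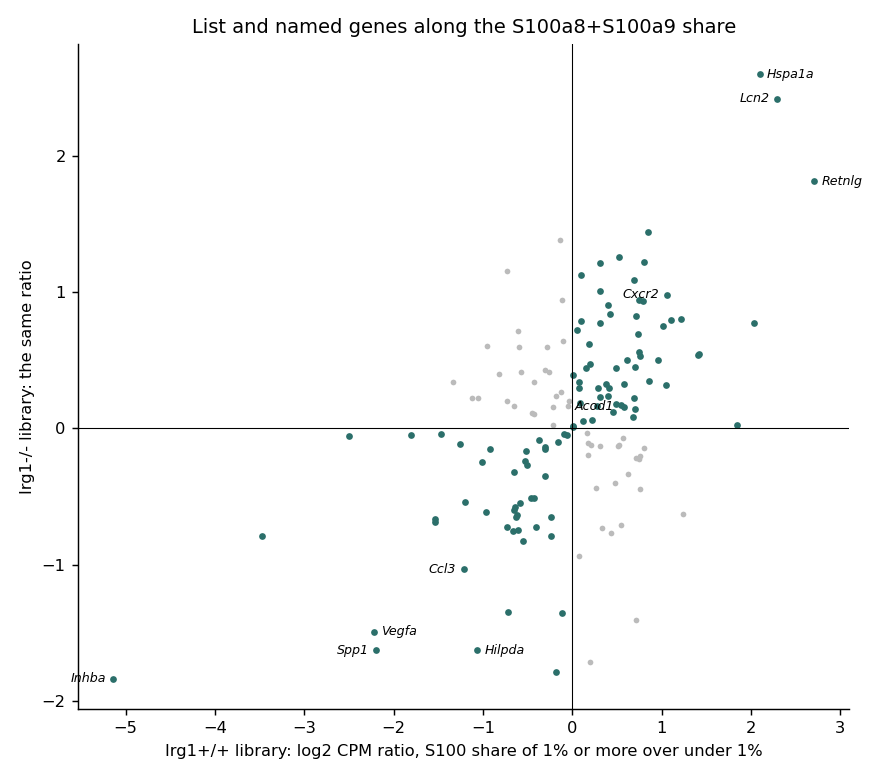
Points are listed or named genes with at least 100 UMIs, by the log2 CPM ratio of cells with S100a8 and S100a9 at 1% of UMIs or more over cells under 1%, in the library labelled Irg1+/+ (x axis) and Irg1-/- (y axis). Green genes have the same sign in both libraries and gray genes do not. Lcn2 and Retnlg lie at the upper right, Inhba, Spp1 and Vegfa at the lower left, and Acod1 near 0 on both axes.

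*Acod1* was lower in the library labelled *Irg1*-/- in both ranges of this share. It was at 2812 and 1744 CPM in cells under 1% and at 2711 and 1957 CPM in cells with at least 1%. *Inhba* turned direction, with a log2 ratio between the libraries of -1.10 in cells under 1% and 2.20 in cells with at least 1%, where the first library had 1 UMI and the interval ran from 0.17 to 8.11.

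Cells chosen on the receptor genes in place of *S100a8* and *S100a9* give levels that the rule did not fix. With at least 3 UMIs of *Cxcr2* and *Csf3r*, at most 2 of C1q and at most 2 of *Ccr3*, *Siglecf*, *Alox15* and *F5*, there were 46 and 114 such cells, of which 29 and 89 were among the chosen cells. In the receptor-chosen cells *S100a9* was at 3561 and 8061 CPM, a log2 ratio of 1.18, and *S100a8* at 2778 and 3962 CPM, a log2 ratio of 0.51. Their *Acod1* log2 ratio was -0.09, made up of -0.85 in the 29 and 89 cells that the *S100a8* and *S100a9* rule also chose and 0.97 in the 17 and 25 that it left out. In the 29 and 89 cells the log2 ratio was 0.47 for *S100a9* and -0.19 (-0.36 to -0.01) for *S100a8*, whose direction thus turned. The 17 and 25 cells had 24.4 and 172 CPM of *S100a9* and 24.4 and 60.7 CPM of *S100a8*. The cells left out had median depths of 4411 and 3570 UMIs, above the medians of the chosen cells, and the *Acod1* difference between the libraries thus depended on which cells were taken.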

How the data were processed

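Reads came from 2 BD Rhapsody libraries, 1 per genotype. The authors deposited UMI counts per gene and cell (31253 genes), not normalized; per the labels and the methods, base calls were made with CASAVA 1.8, adapters were trimmed with fastp, and reads were aligned to GRCm38 with STAR and counted with UMI-tools. Counts were summed here over cells, leaving 13 mitochondrial genes out of the totals (86007 and 249865 UMIs in the chosen cells). No doublet caller was run, and cells with at least 3 UMIs of T, NK, B or melanocyte markers were left out as an alternative. With 1 library per genotype no test was made, and ratios carry exact conditional binomial intervals, levels exact Poisson intervals and shares Clopper-Pearson intervals, tested on simulated data. For a count of 0 the limit given is 3 counts, not an interval bound.

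The members, gene lists and rules were chosen with earlier results of these data known. Named genes were the 5 markers, examples of 32 lists (the most abundant members or those with the largest difference), the 15 highest folds over other cells and the 10 highest and 10 lowest ratios. *Azu1*, *Clec7a*, *Mx1* and *Mx2* were not analysed here. *Il36g*, on the list of cytokines, was in the files only under its older name *Il1f9*, so it was not counted in that list. The work used edgeR 4.0.16 for TMM factors alone, scipy 1.17.1 for intervals, matplotlib 3.10.9 for figures, and pandas 2.3.3 and numpy 2.4.6 under Python 3.11.15. Other gates, thinning, scaling and count minimums were tried as alternatives.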

Additional observations from a re-analysis of the deposited data

Results flagged for a closer look

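The *Acod1* log2 ratio of the libraries (*Irg1*-/- over *Irg1*+/+) was -0.55 in the cells chosen on *S100a8* and *S100a9* and 0.68 in C1q macrophage marker cells, so it went in opposite directions in the 2 groups of cells of the same pair of libraries. It was also below 0 in eosinophil (-0.74), *Vcan* monocyte (-0.32) and T cell marker cells (-0.66), the last of which should lack *Acod1*, and above 0 in all other cells together (0.21). The difference between them was not tested, since each genotype has 1 library.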

How the results depend on the processing

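No paired analysis was possible because each genotype has 1 library, and for the same reason no replicate could be left out. The share of cells chosen was 0.796% and 2.35% (*Irg1*+/+ and *Irg1*-/-), against 0.446% and 1.79% with at least 10 UMIs of *S100a8* and *S100a9*, 0.334% and 1.502% with at least 1% of UMIs, and 0.382% and 1.14% with no C1q UMI. In the second library it was 2.87% with no limit on C1q and 1.97% for receptor-chosen cells, an alternative chosen after seeing the data, as were the range under 1% and the leaving out of the top cell. It was higher in the second library under all 8 of these and other gates. The share with a *Cxcr2* or *Csf3r* UMI was 92.9% (10 UMIs) and 95.2% (1% of UMIs) in the first library and 82.4% after thinning in the second. The *Acod1* log2 ratio was -0.087 in receptor-chosen cells and -0.30 with TMM, and between -0.35 and -0.69 under the other alternatives. The counts of 50 genes higher and 36 lower, of 1159, became 29 and 15 of 511 with no C1q UMI and 25 and 11 of 441 in cells under 1%. They were 91 and 16 of 1159 with TMM and 17 and 16 of 587 after thinning. With at least 200 UMIs they were 7 and 1 of 271, and with no minimum 1154 and 2365 of 10104. Receptor cells with few monocyte UMIs gave 43 and 18 of 671, and receptor-chosen cells 56 and 67 of 1516. No limit on C1q gave 41 and 50 of 1779. *Cxcl9* turned to -0.078 and *Tnfrsf1b* to 0.12 in receptor-chosen cells, and *Inhba* to 0.81 in receptor cells with few monocyte UMIs and to 2.20 in cells with at least 1%. The causes were not tested. Of 24 genes run under these alternatives (*S100a8*, *S100a9*, *Cxcr2*, *Csf3r* and the 10 highest and 10 lowest ratios), 22 moved by less than their interval with TMM, 24 with the mean of each cell's CPM, 17 in each of the 3 ranges of cells and 10 in receptor-chosen cells. Some list medians kept their sign under scaling, mean CPM, the ranges of cells, receptor-chosen cells and without the top cell. These were monocyte marker, pattern recognition, adhesion, NF-κB, type II interferon, MHC class I, transcription factor and dissociation genes. The monocyte marker median of 1.95 was 0.08 in receptor cells with few monocyte UMIs, a range that caps *Ly6c2* and *Ms4a4c*. It was 0.34 in receptor-chosen cells. Medians of the other lists with a gene at 50 UMIs did not keep their sign, and lists with none had no median. Depth limits all of this, since 3 UMIs are 34.9 and 12.0 CPM.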

Other observations

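Mitochondrial genes took a median of 0.551% and 0.659% of the UMIs of the chosen cells (*Irg1*+/+ and *Irg1*-/-) and 2.84% and 2.51% of those of all other cells. *Retnlg* was higher in eosinophil marker cells, at 1619 and 2468 CPM, than in the chosen cells, at 1116 and 552 CPM, so it did not set the chosen cells apart from that group.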
